A study of Homo sapiens with 6 samples.

Results

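The TEAD transcription factors, their coactivator YAP1 and 4 YAP target genes were followed on 6 Affymetrix expression arrays. The 9 listed genes were TEAD1, TEAD2, TEAD3, TEAD4, YAP1, CCN1, CCN2, ANKRD1 and AMOTL2. They were chosen by symbol, with the transfection differences of these arrays already known, among them that of TEAD2, which was lower in every line. Transfection differences of the members are therefore given as descriptions, and nothing is read from counts of calls on them. The stated rule does not use differences between cell lines, and these were tested over all genes. Members and lists were still chosen with earlier results of these data known, so their counts beside all genes are descriptions. Of the 9 genes, 8 had a named probe set, 10 probe sets in all, out of 14884 named genes. CCN1, formerly CYR61, had no probe set named under either symbol and was not analysed here. All 8 measured members passed the filter of a mean log2 signal of at least 5 and were among the 8620 genes tested.

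The arrays came from 3 human ovarian cancer cell lines, namely ES-2, then OVCAR-3, then SKOV-3, and every run of 3 values below keeps that order. Each line was transfected with miR-135a-3p, or with miR-blank as the control, and gave 1 array for each. The form of the transfected RNA, its dose and the time of harvest are not given in the sources used here. Signals are normalised log2 values, so 1 unit is a 2-fold difference.

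TEAD proteins are DNA-binding factors that activate transcription when a coactivator, YAP1 or its relative TAZ (gene WWTR1), is bound to them. The Hippo kinase cascade phosphorylates YAP and TAZ, which keeps them out of the nucleus. CCN2 (formerly CTGF), ANKRD1 and AMOTL2 are among the genes most often read as a measure of YAP activity, and AMOTL2 also encodes a protein that binds YAP and restrains it.

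The microRNA is shown because it is the agent of the experiment. The mature sequence, from RefSeq (GRCh38.p14, chr3:52294232-52294253, minus strand), is printed with its seed, bases 2 to 8, in capitals.
hsa-miR-135a-3p: uAUAGGGAuuggagccguggcg

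The regions before the start sites of target genes are shown because they hold the core letters that TEAD proteins recognise. RefSeq start sites were found for 6 of the 9 members, with 8 promoters. The 250 bases before each start were searched for GGAATG and its reverse complement CATTCC, whose letters cannot overlap each other. Matches were present in 4 of the 8 promoters, those of CCN2, ANKRD1, YAP1 and 1 of 2 for AMOTL2, and in none of those of TEAD2 and TEAD3. Across all 35116 RefSeq promoters of this length, 11.9% held at least 1 match, 0.94% at least 2 and 0.0826% at least 3. The promoter of CCN2 (GRCh38.p14, chr6:131951373-131951622, minus strand) held 3 matches, that of ANKRD1 (chr10:90921088-90921337, minus strand) 2, and that of AMOTL2 (chr3:134374448-134374697, minus strand) 1. Matches are in capitals, and each line runs 5′ to 3′ up to the base before the start.
CCN2: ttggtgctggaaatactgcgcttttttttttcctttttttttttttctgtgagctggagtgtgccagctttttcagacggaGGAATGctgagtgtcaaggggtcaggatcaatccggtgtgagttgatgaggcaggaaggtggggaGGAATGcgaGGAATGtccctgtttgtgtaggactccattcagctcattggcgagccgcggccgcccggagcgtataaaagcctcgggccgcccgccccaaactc
ANKRD1: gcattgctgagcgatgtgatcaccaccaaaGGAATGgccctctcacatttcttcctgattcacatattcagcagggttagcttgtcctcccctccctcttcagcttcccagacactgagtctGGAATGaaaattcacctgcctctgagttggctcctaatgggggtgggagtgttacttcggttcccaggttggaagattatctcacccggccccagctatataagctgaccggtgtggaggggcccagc
AMOTL2: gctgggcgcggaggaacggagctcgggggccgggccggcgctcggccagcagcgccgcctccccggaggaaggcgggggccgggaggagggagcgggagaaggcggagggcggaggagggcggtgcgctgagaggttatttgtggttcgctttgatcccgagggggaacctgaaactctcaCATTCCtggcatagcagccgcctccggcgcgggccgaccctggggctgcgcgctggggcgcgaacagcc

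In CCN2 the matches began 169, 104 and 95 bases before the start, and in ANKRD1 220 and 128 bases before it. AMOTL2 had its match 69 bases before the start, on the opposite strand. A match of letters is a description and not a site of binding.

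Medians of the 6 arrays lay between 4.16 and 4.23, and there were no detection calls, so a signal near the median is not shown to be above background. MIR135A1, the hairpin gene of the microRNA, read 12.57, 12.20 and 11.58 after miR-135a-3p (ES-2, OVCAR-3, SKOV-3), against 1.75, 2.26 and 2.07 after miR-blank. Of 5 epithelial markers 4 were named. The keratin KRT18, on the brighter of its probe sets, read between 9.36 and 10.47 on all arrays, and on the other between 6.50 and 6.92. KRT8 read between 5.29 and 6.75. The adhesion molecule EPCAM read between 3.78 and 4.32, near the medians, and KRT19 between 4.71 and 5.20. That EPCAM and KRT19 were this low in OVCAR-3, a line of epithelial origin, was not checked against another probe set. PAX8, a Mullerian lineage factor, read 4.80, 4.12 and 8.12 after miR-135a-3p and 4.17, 4.33 and 8.80 after miR-blank. It too was near the medians in OVCAR-3. The identity of the lines was taken from the labels and was not tested. The other named markers of that list were WT1, at 5.72, 5.95 and 7.15 after miR-135a-3p and 5.69, 5.59 and 6.14 after miR-blank, and MSLN, at 5.53, 5.41 and 7.02 after miR-135a-3p and 5.19, 5.23 and 5.62 after miR-blank. DCN, the 1 named fibroblast marker of 4, read between 1.89 and 2.21. Of 4 endothelial markers 3 were named. PECAM1 read between 3.87 and 4.35, VWF between 4.29 and 4.59 and KDR between 4.08 and 4.91. The SD of the transfection difference over all genes was 0.30, 0.30 and 0.48.

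TEAD2 was the member with lower signal after miR-135a-3p in every line. Its signals were 5.38, 7.36 and 6.0 after miR-135a-3p (ES-2, OVCAR-3, SKOV-3), against 6.02, 7.79 and 7.40 after miR-blank. All 6 signals lay above the array medians. The 2 transfections overlapped across lines, because the lines themselves differed, but each pair ran the same way. The log2 differences were −0.64, −0.43 and −1.40, with a mean of −0.82 ± 0.51 (SD, n = 3), which is 0.566 times the miR-blank level. Without SKOV-3 the mean was −0.53. Lower signal in all 3 lines was found for 1 of 8 members, TEAD2, where 13.4% of all genes had it.

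The other TEAD genes differed less between transfections and in no common direction. TEAD1, the founding member of the family, read 8.39, 8.32 and 8.23 after miR-135a-3p (ES-2, OVCAR-3, SKOV-3), against 8.35, 8.33 and 8.46 after miR-blank. Its differences of 0.04, −0.01 and −0.24 were the narrowest range among the TEAD genes. TEAD3 read 6.64, 6.73 and 7.04 after miR-135a-3p in the same order, against 6.63, 6.39 and 7.07 after miR-blank. The OVCAR-3 pair alone stood apart there, with a difference of 0.34. TEAD4, which is known for its role in the trophectoderm of the mouse embryo, read 7.62, 7.61 and 7.78 after miR-135a-3p, against 7.91, 7.90 and 7.42 after miR-blank. TEAD4 was thus lower in ES-2 (−0.29) and OVCAR-3 (−0.30) and higher in SKOV-3 (0.36).

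YAP1 signals were nearly equal after the 2 transfections on the tested probe set. They were 10.29, 8.39 and 8.57 after miR-135a-3p (ES-2, OVCAR-3, SKOV-3), against 10.33, 8.51 and 8.57 after miR-blank. The mean difference was −0.05 ± 0.06 (SD, n = 3). A second YAP1 probe set read 7.78, 5.91 and 6.06 after miR-135a-3p, against 7.39, 5.78 and 5.93 after miR-blank. It was higher in every line, by 0.39, 0.14 and 0.12, so the probe sets of YAP1 disagreed in the direction of their small differences.

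**Figure D1:**
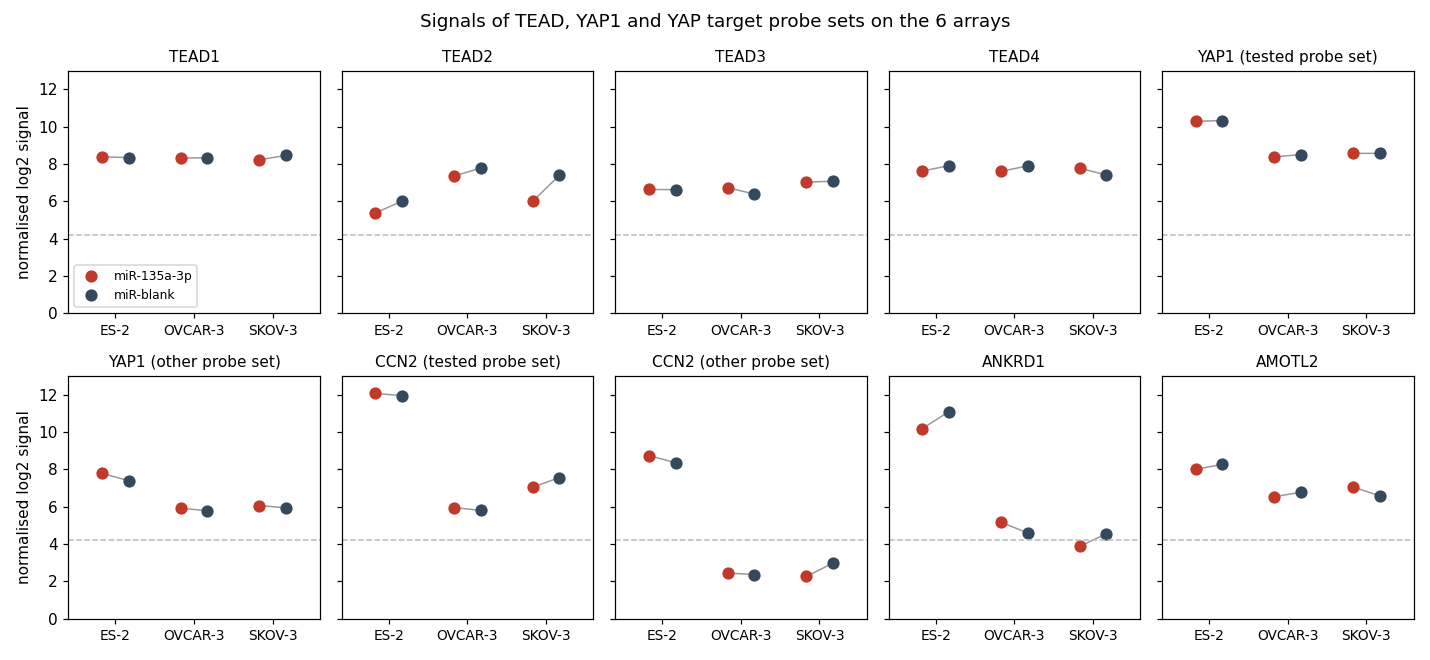
Normalised log2 signal (vertical axis) of the 10 named probe sets of the members in each line (horizontal axis), with 1 point per array, miR-135a-3p in red at the left and miR-blank in dark blue at the right of each joined pair. The dashed line is the mean of the array medians. TEAD2 is lower after miR-135a-3p in all 3 lines, and YAP1, CCN2, ANKRD1 and AMOTL2 are highest in ES-2.

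The YAP target genes did not share a direction after transfection. CCN2, a secreted matricellular protein, read 12.07, 5.94 and 7.04 after miR-135a-3p (ES-2, OVCAR-3, SKOV-3), against 11.95, 5.80 and 7.56 after miR-blank. Its difference was 0.12 in ES-2 and 0.15 in OVCAR-3 but −0.51 in SKOV-3. A second CCN2 probe set gave 0.39, 0.08 and −0.71, and lay below the array median on all 4 arrays of OVCAR-3 and SKOV-3.

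ANKRD1, an ankyrin repeat protein of the nucleus and sarcomere, read 10.19, 5.16 and 3.86 after miR-135a-3p, against 11.09, 4.59 and 4.54 after miR-blank. The ES-2 (−0.91) and SKOV-3 (−0.68) pairs were lower and the OVCAR-3 pair higher (0.57), with a mean of −0.34 ± 0.80 (SD, n = 3). In SKOV-3 the signals lay on both sides of the array median, so that difference is not shown to be above background. AMOTL2 read 8.0, 6.53 and 7.05 after miR-135a-3p, against 8.26, 6.77 and 6.58 after miR-blank. Like TEAD4, it was lower in ES-2 (−0.26) and OVCAR-3 (−0.23) and higher in SKOV-3 (0.48).

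**Figure D2:**
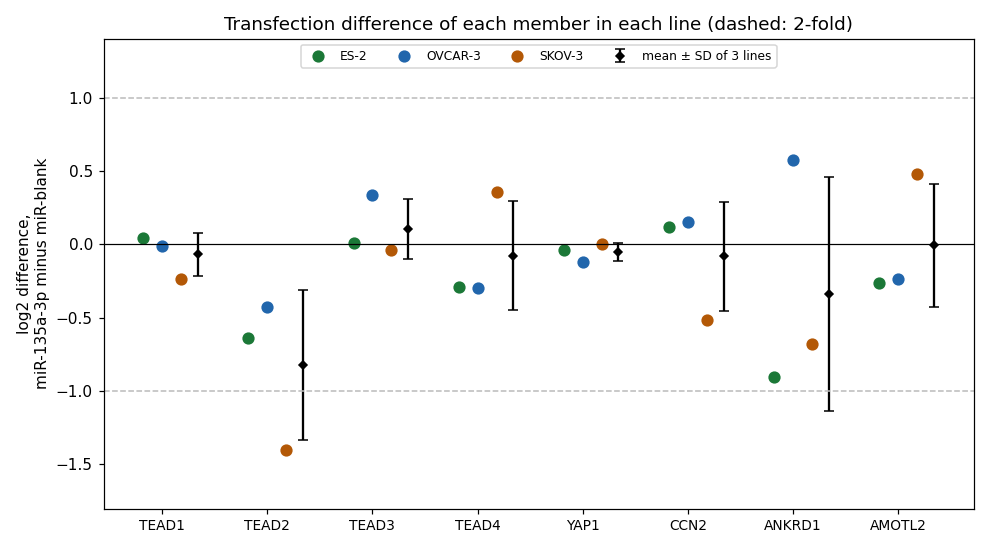
Log2 difference, miR-135a-3p minus miR-blank (vertical axis), of the 8 tested members (horizontal axis), with 1 coloured point for each line. Diamonds and bars are the mean ± SD of the 3 lines, and dashed lines mark 2-fold. TEAD2 is below 0 in all lines and past 2-fold in SKOV-3 (−1.40).

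With the cell line as a block, limma called 1 of 8620 genes, 0.0116%, at an adjusted p under 0.05. That gene was MIR135A1, with a mean difference of 10.09 (limma adjusted p 4.83e-05), and 0 of 8 members were called, a count from the contrast that the choice of members used. At an unadjusted p under 0.05 limma gave 251 genes. At least 2-fold was reached by 0 members in ES-2 and 0 in OVCAR-3, where 0.673% of all genes reached it in each line. In SKOV-3 it was reached by 1 of 8, TEAD2, where 4.0% of all genes did. The median of the mean differences was −0.07 over the members and −0.01 over all genes tested. Leaving out 1 line turned the sign of the mean for 5 of 8 members, TEAD1, TEAD3, TEAD4, CCN2 and AMOTL2.

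Beside the SKOV-3 differences, some of the cell type markers also differed there. Of 5 leukocyte markers 3 were named, and their summed log2 signal was 19.28, 16.19 and 19.62 after miR-135a-3p (ES-2, OVCAR-3, SKOV-3), against 19.44, 16.06 and 16.60 after miR-blank. Most of the gap in SKOV-3 came from the lysosomal protein CD68, at 10.20 after miR-135a-3p and 7.96 after miR-blank. TYROBP was also higher there, at 5.87 and 5.17, while CD14 read 3.54 and 3.46, below the array median. Also in SKOV-3, WT1 differed by 1.0 and MSLN by 1.41, against −0.68 for PAX8. The summed signal of the 4 epithelial markers was 24.83 after miR-135a-3p and 23.77 after miR-blank there. That of the 3 named endothelial markers was lower, at 12.60 after miR-135a-3p and 13.17 after miR-blank. DCN read 2.02 and 1.89, below the array median. Each array is labelled as a single cell line, and no leukocytes or other cell types are named in the labels. In bulk arrays, a change in the share of cells of a type and in RNA per cell cannot be told apart. The part of these markers in the SKOV-3 values of TEAD2, CCN2 and AMOTL2 was not tested.

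Between the cell lines, YAP1 and its targets stood apart in ES-2. YAP1, CCN2, ANKRD1 and AMOTL2 were all higher in ES-2 than in both OVCAR-3 and SKOV-3, each by 2-fold or more with a limma adjusted p under 0.05. These are 4 of 8 members, or 3 without ANKRD1, which passed the filter through ES-2 alone, where 2.95% of all genes met the same rule. TEAD2 ran the other way and was lowest in ES-2. TEAD1, TEAD3 and TEAD4 were not called between any lines. A line was represented by 2 arrays of different transfection, and no label gives separate cultures, so these p-values may measure technical spread.

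Averaged over the 2 arrays of a line, CCN2 read 12.01, 5.87 and 7.30. Its lower ES-2 array, at 11.95, stood above the highest array of the other lines, at 7.56. The difference of ES-2 minus OVCAR-3 was 6.14 (SE 0.22, limma adjusted p 1.88e-05), a ratio of 70.3, and that of ES-2 minus SKOV-3 was 4.71 (SE 0.22, limma adjusted p 7.39e-05), a ratio of 26.1. CCN2 was the 1 member called between OVCAR-3 and SKOV-3, lower in OVCAR-3 with a difference of −1.43 (limma adjusted p 0.00492). Without the miR-blank array of OVCAR-3 that call was lost (adjusted p 0.0681). The second CCN2 probe set had line means of 8.54, 2.40 and 2.61, and gives no order of OVCAR-3 and SKOV-3, which lay below the array median.

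The line means of ANKRD1 were 10.64, 4.88 and 4.20. The means of OVCAR-3 and SKOV-3 lay under the filter and are not shown to be above background. ANKRD1 thus passed the filter through ES-2, the line in which it was high, so its differences of 5.76 over OVCAR-3 and 6.44 over SKOV-3 are a description. OVCAR-3 and SKOV-3 were not called apart (0.67, limma adjusted p 0.212). Without the miR-blank array of OVCAR-3 that difference was 1.36, and without the miR-135a-3p array of OVCAR-3 it was −0.01. Neither is read further, since these signals are not shown to be above background.

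In both comparisons with ES-2, YAP1 had smaller differences than CCN2 and ANKRD1, and larger ones than AMOTL2. Its line means were 10.31, 8.45 and 8.57. It was higher in ES-2 by 1.86 over OVCAR-3 (limma adjusted p 0.000378), a ratio of 3.64, and by 1.74 over SKOV-3 (limma adjusted p 0.000968), a ratio of 3.33. OVCAR-3 and SKOV-3 did not differ beyond the error (−0.13, 95% interval −0.51 to 0.26). The second YAP1 probe set, with line means of 7.58, 5.84 and 5.99, gave the same order.

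AMOTL2 had line means of 8.13, 6.65 and 6.81 (ES-2, OVCAR-3, SKOV-3). It was higher in ES-2 by 1.48 over OVCAR-3 (limma adjusted p 0.00437) and by 1.32 over SKOV-3 (limma adjusted p 0.00990). The first call was lost without the miR-135a-3p array of OVCAR-3 (adjusted p 0.0630). The second was lost without the miR-blank array of ES-2 (adjusted p 0.0598), and without the miR-blank array of SKOV-3 the difference was 0.96, under 2-fold.

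TEAD2 had line means of 5.70, 7.57 and 6.70 (ES-2, OVCAR-3, SKOV-3). It was lower in ES-2 than OVCAR-3 by a difference of −1.88 (SE 0.26, limma adjusted p 0.00266). ES-2 minus SKOV-3 was −1.0 (SE 0.26, limma adjusted p 0.0354), just at the 2-fold limit. That call was lost when either ES-2 array, either OVCAR-3 array or the miR-blank array of SKOV-3 was left out, with a difference of −0.57 (adjusted p 0.0559) in the last case. It was also lost without the transfection as a block (adjusted p 0.142). OVCAR-3 minus SKOV-3 was 0.87 (adjusted p 0.0497), under 2-fold, and 1.31 (limma adjusted p 0.00118) without the miR-blank array of SKOV-3.

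The other TEAD genes were close to level across lines. TEAD1 had line means of 8.37, 8.33 and 8.35 (ES-2, OVCAR-3, SKOV-3), and its ES-2 minus OVCAR-3 difference was 0.04 (95% interval −0.36 to 0.44). TEAD4 had 7.77, 7.75 and 7.60, with intervals inside 2-fold for every pair of lines. TEAD3 had 6.63, 6.56 and 7.06, and its widest difference, OVCAR-3 minus SKOV-3, was −0.49 (limma adjusted p 0.0898).

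**Figure D3:**
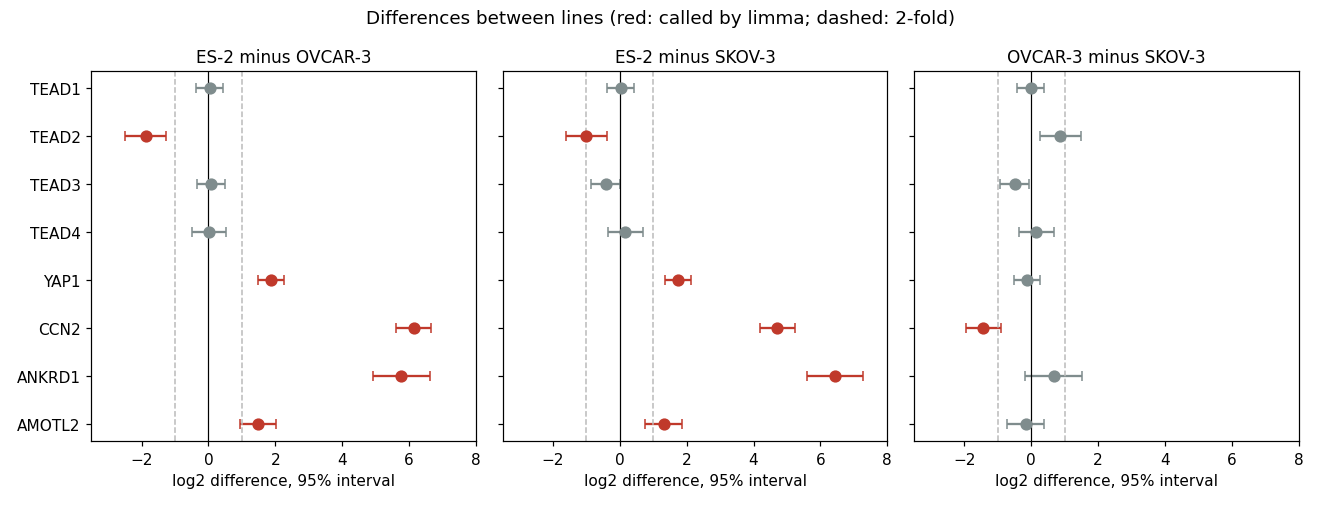
Log2 difference between lines (horizontal axis) of the 8 tested members, with 1 panel for each pair of lines. Points are limma estimates, bars are 95% intervals, red marks genes called at 2-fold or more with an adjusted p under 0.05, and dashed lines mark 2-fold. CCN2 and ANKRD1 stand farthest to the right in both ES-2 panels, and TEAD2 is the 1 member called to the left there.

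The counts of members stand beside these shares of all genes. Of the 8 members 5 were called for ES-2 minus OVCAR-3, where 16.5% of genes were. Among them 4 were higher in ES-2, or 3 without ANKRD1 (8.65% of genes), and 1 lower (7.82%). Between ES-2 and SKOV-3 the same 5 members were called, where 12.1% of genes were. Of these members 4 were higher in ES-2, or 3 without ANKRD1 (4.85%), and 1 lower (7.29%). Between OVCAR-3 and SKOV-3, 1 of 8 was called, where 14.6% of genes were, with 0 higher (5.60%) and 1 lower (8.96%).

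Other genes known as YAP and TAZ targets were read from a list of 23, of which 12 were named and tested. For ES-2 set against OVCAR-3, 8 were higher (8.65% of all genes) and 0 lower (7.82%). For ES-2 set against SKOV-3, 5 were higher (4.85%) and 0 lower (7.29%). For OVCAR-3 set against SKOV-3, 0 were higher (5.60%) and 6 lower (8.96%). Of the 8, CCDC80, DOCK5, EDN1, FOXF2 and THBS1 had an OVCAR-3 mean under the filter, and so did 4 of the 6, so these counts rest in part on signals not shown to be above background. The median difference of the list was 3.90, 1.12 and −1.92 for ES-2 minus OVCAR-3, ES-2 minus SKOV-3 and OVCAR-3 minus SKOV-3, where all genes tested had −0.04, −0.04 and −0.01. By these medians the list stood highest in ES-2, then in SKOV-3, then in OVCAR-3. CCN2 had that order on its tested probe set, while its second probe set gave no order of OVCAR-3 and SKOV-3.

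The receptor tyrosine kinase AXL read 10.86, 5.75 and 9.59 after miR-135a-3p (ES-2, OVCAR-3, SKOV-3), against 11.01, 5.84 and 9.44 after miR-blank. EDN1, the vasoactive peptide endothelin, read 10.03, 3.99 and 7.04 after miR-135a-3p, against 10.03, 3.37 and 8.34 after miR-blank. Both OVCAR-3 signals of EDN1 lay below the array median. CCDC80, a secreted matrix protein, was higher in ES-2 by 3.35 over SKOV-3 (limma adjusted p 0.000157). Its OVCAR-3 signals, 4.18 after miR-135a-3p and 4.25 after miR-blank, lay at the array medians and are not shown to be above background. FJX1, the relative of a planar polarity regulator of the fly, was higher in ES-2 by 3.88 over OVCAR-3 (limma adjusted p 3.35e-05) and by 4.28 over SKOV-3 (limma adjusted p 5.12e-05). Not called between ES-2 and either other line were ARHGEF17, CRIM1, IGFBP3 and BIRC5, the mitotic inhibitor of apoptosis survivin. BIRC5 had signals of 8.64, 8.86 and 9.50 after miR-135a-3p and 8.69, 8.86 and 9.32 after miR-blank. BIRC5, ARHGEF17 and CRIM1 are named after their values were seen.

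After transfection, 0 of these 12 targets were called and 1 was higher in all lines, where 9.54% of all genes were. That gene was the forkhead factor FOXF2, with 0.20, 0.31 and 0.64 (ES-2, OVCAR-3, SKOV-3), and both its OVCAR-3 signals lay below the array median. In SKOV-3, 3 of the 12 were at least 2-fold lower, where 1.66% of all genes were, and 0 higher, where 2.34% were. IGFBP3, which binds insulin-like growth factors, read 5.80 after miR-135a-3p there, against 9.15 after miR-blank. THBS1, the matrix protein thrombospondin, read 4.29 after miR-135a-3p and 7.68 after miR-blank, and EDN1 differed by −1.30. In ES-2 and OVCAR-3, 0 of the 12 reached 2-fold. The list median was 0.00, 0.02 and −0.19 (ES-2, OVCAR-3, SKOV-3), where all genes had −0.01, −0.05 and 0.02.

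**Figure D4:**
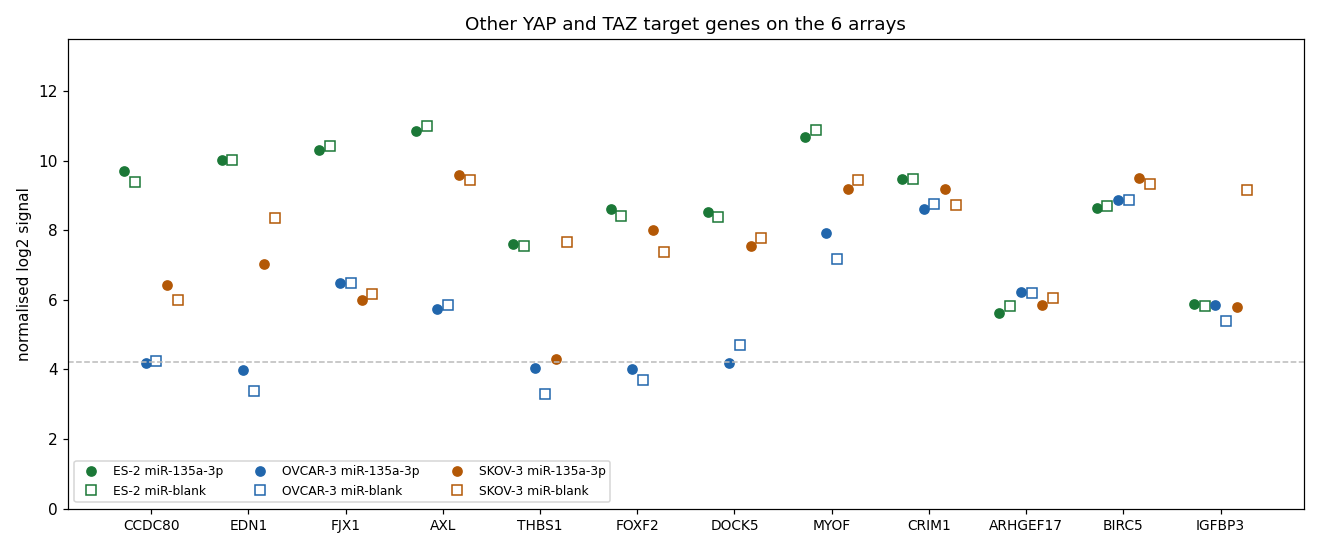
Normalised log2 signal (vertical axis) of the 12 named genes of the list of other YAP and TAZ targets (horizontal axis) on the 6 arrays, with colours for lines, filled circles for miR-135a-3p and open squares for miR-blank. The dashed line is the mean of the array medians. ES-2 signals lie above those of the other lines for CCDC80, EDN1, FJX1, AXL and MYOF, and THBS1 and IGFBP3 differ by over 3 units between the SKOV-3 arrays.

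Regulators upstream of YAP were read from a list of their own. Of 16 Hippo kinases and adaptors, 15 were named and 12 tested. For ES-2 set against OVCAR-3, 4 were higher (8.65% of all genes) and 0 lower (7.82%), namely WWC1, a scaffold of the cascade (2.75), FRMD6 (2.78), the YAP-binding angiomotin relative AMOTL1 (1.32) and the kinase TAOK3 (1.25). Between ES-2 and SKOV-3, 2 were called, FRMD6 (2.87) and AMOTL1 (1.20), both higher in ES-2 (4.85% of all genes). Between OVCAR-3 and SKOV-3, NF2, the tumour suppressor merlin, was higher (1.09), as were 5.60% of all genes, and TAOK3 (−1.49) and WWC1 (−1.97) were lower, as were 8.96%. The OVCAR-3 mean of WWC1 was just under the filter. After transfection 0 of the 12 were called. On the tested probe sets 3, TAOK3, MOB1B and AMOTL1, were higher in all lines by 0.41 or less, where 9.54% of all genes were. A second AMOTL1 probe set gave 0.58, −0.33 and 0.23 (ES-2, OVCAR-3, SKOV-3), and so was lower in OVCAR-3. FRMD6 was at least 2-fold higher in SKOV-3, at 6.18 after miR-135a-3p and 4.76 after miR-blank. Of the 12 tested, SAV1, a scaffold of the kinases, was the 1 gene lower in all lines (−0.19, −0.08 and −0.13), where 13.4% of all genes were. AMOT, whose mean was under the filter, was not tested. It was also lower in all lines (−0.21, −0.43 and −0.79), with line means of 3.44, 6.26 and 3.84. Its signals lay below the array median on the ES-2 arrays and on the miR-135a-3p array of SKOV-3. SAV1, MOB1B and AMOT are named after their values were seen.

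Among the TAZ and VGLL cofactors, WWTR1, which encodes TAZ, was lower in ES-2 than OVCAR-3 (−1.20, limma adjusted p 0.00251), the opposite of YAP1. VGLL3, a vestigial-like TEAD cofactor, read 8.12, 4.35 and 4.11 after miR-135a-3p (ES-2, OVCAR-3, SKOV-3), against 7.65, 4.06 and 4.29 after miR-blank, so it was near the array medians outside ES-2. It passed the filter through ES-2, and its differences of 3.68 over OVCAR-3 and 3.68 over SKOV-3 are a description. Of the other CCN genes, all 4 were named and 1, CCN5, was tested, with no call between lines.

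Profiles most like those of the members were found by the root mean square difference over 6 arrays, after each gene was centred on its own mean. Nearest to TEAD2 were APOC1 (0.21), RHOB, a small GTPase (0.22), and the read-through gene PRR5-ARHGAP8 (0.27). RHOB had line means of 7.61, 9.92 and 8.86, and transfection differences of −0.40, −0.20 and −1.13 (ES-2, OVCAR-3, SKOV-3). Nearest to CCN2 were TRIM55 (0.18), the collagen cross-linking enzyme LOX (0.20) and BCL2A1 (0.44). LOX had line means of 10.90, 4.92 and 6.30, beside 12.01, 5.87 and 7.30 for CCN2.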

How the data were processed

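The deposited values are log2 signals of 53617 probe sets on 6 arrays. Per the submitters' processing notes, the tools included RMA, with Transcriptome Analysis Console 3.0 and Affymetrix Expression Console 1.4 beside it and no role stated. RMA equalises array distributions, so a common shift of most genes would be removed. The scale was read as log2 from the values. Gene names came from the platform annotation, updated through RefSeq (16098 with 1 symbol, 0 with several, 37519 unnamed here). The probe set with the highest mean was kept per gene.

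limma 3.58.1 in R 4.3.3 was fitted over all 8620 genes, two-sided, with Benjamini-Hochberg adjustment. The transfections were compared with the line as a block. The lines were compared with the transfection as a block. Both arrays of each line come from 1 cell line, which pairs them, and their deviations correlated at 0.90, 0.91 and 0.76 (ES-2, OVCAR-3, SKOV-3). The procedure was run on simulated data with independent noise and no differences beyond those planted, and no conclusion on these arrays is drawn from that run. Members and lists were chosen with earlier results of these data known. Named genes were all members, list genes called or past 2-fold, up to 4 per list by mean difference or range of line means, and the 3 nearest profiles of TEAD2 and CCN2 (CCN1, also in that rule, had no probe set). The number of arrays limits the precision.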

Additional observations from a re-analysis of the deposited data

Results flagged for a closer look

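Of the members and listed pathway genes, 3 had transfection differences past 1.5-fold with opposite signs between lines, and none of the 3 was a member. The member ANKRD1 fell just short, with −0.91 in ES-2, −0.68 in SKOV-3 and 0.57 (1.49-fold) in OVCAR-3. Its signals outside ES-2 are not shown to be above background. THBS1 differed by 0.74 in OVCAR-3 but by −3.39 in SKOV-3. EDN1 differed by 0.63 in OVCAR-3 but by −1.30 in SKOV-3. OVCAR-3 read THBS1 and EDN1 below the array median after both transfections, and those differences are not shown to be above background. CCN3, a relative of CCN2, was higher after miR-135a-3p in OVCAR-3 (1.09) and lower in ES-2 (−0.95) and SKOV-3 (−0.74), and its mean was below the filter. None of these contrasts between lines was tested, because a line has a single array for each transfection.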

How the results depend on the processing

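The alternatives were no block, no filter, a mean of at least 6, equal array medians, quantile normalization, an intensity trend, the mean over probe sets, and each line or array left out. Leaving out 1 line, limma called between 1 and 4 genes for the transfection, the 4 without SKOV-3, with no member among them. Leaving out 1 array, it called between 808 and 1409 genes for OVCAR-3 minus SKOV-3. Genes past 2-fold numbered 134 in ES-2 and 129 in OVCAR-3 without a filter, and 32 and 34 at a mean of at least 6, where more or fewer genes were tested. Of 11 calls of members between lines, 7 held under every alternative, those of YAP1, CCN2 and ANKRD1 in ES-2 against both other lines and of TEAD2 between ES-2 and OVCAR-3. With the mean over probe sets, CCN2 had −0.82 for OVCAR-3 minus SKOV-3, under 2-fold, and YAP1 a mean transfection difference of 0.08. Signals near the array median limit ANKRD1 outside ES-2. Since ANKRD1 passed the filter through ES-2, its calls, which are counted among the 11 and among the 7, remain a description.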
